A study of Mus musculus with 30 samples.

Results

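Mouse fibroblasts carrying the CRY2 mutant D325H were set against fibroblasts carrying an empty vector (EV), both plated sparsely and both made to express c-MYC. The comparison used 6 of the 30 libraries of the series, chosen by the labels alone: 3 libraries of D325H cells and 3 of EV cells at the lower of 2 plating densities. All of these cells were primary mouse embryonic fibroblasts (MEFs) of genotype Cry2-/-, and the D325H cells carried the mutant protein in that background while the EV cells carried none. Both lines stably overexpressed c-MYC, and both were grown at 3% oxygen in medium with 15% fetal bovine serum. Each replicate combined 2 wells plated at 150 cells per well and collected 14 days later. The labels call the 3 replicates of a line biological, and do not say whether the lines were derived more than once, so a difference of construct is here also a difference of cell line, and a p-value here speaks only of the variation among the libraries at hand. The title of the series places its question at p53 and cell growth under CRY2 missense mutations.

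Cryptochrome 2 is one of the repressors of the mammalian circadian clock: with the PER proteins it holds back the activators CLOCK and BMAL1 (the product of Arntl) at E-boxes, the DNA elements through which the genes of the PER, CRY and REV-ERB proteins and of DBP are driven. The p53 protein, encoded by Trp53 in mice, activates genes that stop the cell cycle or start cell death, among them Cdkn1a (p21) and Mdm2, whose product marks p53 for degradation. In MEFs the p53 pathway limits growth in culture, and an active MYC gene adds to that pressure through ARF, a product of Cdkn2a. MYC itself binds E-boxes and drives genes of ribosome assembly, nucleotide synthesis and growth.

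In the D325H cells, Trp53 mRNA and 25 of 33 tested p53 target genes were lower than in EV cells, and no member of a list of MYC target genes was higher while 24 of 27 were lower. Higher were 21 of 31 collagens and other matrix genes, 14 of 15 contractile genes, 8 of 16 imprinted growth genes with Igf2 among them, and the clock genes Per1, Per2 and Per3. The fitted differences are in log2(TPM + 1), D325H minus EV, with their standard errors (SE), where TPM is a transcript's share of a library after correction for length. A gene is said to have risen or fallen where limma's moderated test gave a Benjamini-Hochberg adjusted p under 0.05 over the 14093 genes tested. By that rule 1374 genes were higher in D325H cells, which is 9.75% of those tested, and 1437 were lower, which is 10.2%. The counts of list members called below are to be read against these shares. The lists and their members were chosen with earlier results of these data known. The shares of all tested genes, here and below, are thus no independent reference for them. The median difference of all tested genes was -0.0105.

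These calls rest on a spread estimated over all 30 libraries in 10 groups. With only the 6 libraries fitted, 5 genes were called, all of them higher in D325H cells, and 4006 had an unadjusted p under 0.05. The 5 were Cry2, the pseudogene Rpl34-ps1, the fast muscle troponin Tnnt3, the signalling regulator Arhgap31 and the cadherin Fat4, and Cry2 was the only list member among them. Rpl34-ps1, Arhgap31 and Fat4 are named after their values were seen. Fat4 had 37.6, 26.4 and 24.7 TPM in the D325H libraries, against 5.75, 6.14 and 5.96 TPM in the EV libraries. Arhgap31 had 42.5, 50.3 and 49.2 TPM in the D325H libraries, against 19.1, 18.0 and 19.9 TPM in the EV libraries. An exact two-sided permutation test of 3 libraries against 3 cannot give a p under 0.1. The number of genes called was 647 without D325H library 1, 1220 without D325H library 2, 1156 without EV library 3 and 4121 without D325H library 3.

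D325H library 3 lay between the other D325H libraries and the EV libraries. The median absolute difference over tested genes, in log2(TPM + 1), was 0.178 between D325H libraries 1 and 2, 0.333 between 1 and 3, and 0.254 between 2 and 3. Between D325H library 3 and the EV libraries it was 0.214, 0.235 and 0.260, and among the EV libraries it ran from 0.165 to 0.193. D325H library 3 was the D325H library nearest to EV in 79.5% of the 1275 genes called higher without overlap of the libraries, which are 9.05% of those tested, and in 90.1% of the 1145 called lower without overlap, which are 8.12%. The summed TPM over the deposited genes was 960238 to 962945 in the D325H libraries and 963312 to 963900 in the EV libraries, without overlap. In other general measures, 12406 to 12655 genes reached 1 TPM in the D325H libraries and 12449 to 12569 in the EV libraries, and mitochondrial transcripts took 1.98% to 2.77% of the TPM in the D325H libraries and 2.40% to 2.75% in the EV libraries. Vim, a general marker of fibroblasts, stood at 4706, 5226 and 5658 TPM in the D325H libraries, against 5568, 6527 and 6446 TPM in the EV libraries. Vim is not among the genes named by rule, and its list of 15 fibroblast markers had 6 members higher and 1 lower. Summed over that list, expression was 18622, 16636 and 16641 TPM in the D325H libraries, against 14914, 13672 and 13765 TPM in the EV libraries. In bulk RNA, fewer cells of a kind and less RNA per cell cannot be told apart.

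The construct itself could be seen in the expression of Cry2 (chr2:92403646-92434043, minus strand, GRCm38). Cry2 had 93.6, 126 and 129 TPM in the D325H libraries, against 3.82, 5.55 and 4.40 TPM in the EV libraries. All of the D325H libraries were far above all of the EV libraries, library 3 included, and the difference was 4.39 ± 0.34 (limma, adjusted p = 5.9e-08). For Cry2 library 3 did not lie between the others and EV. The D325H cells had 116 ± 19.6 TPM and cells carrying wild-type CRY2 (WT) at the same density 75.5 ± 28.0 TPM (SD, n = 3 each), a difference of 0.68 that was not called (limma, adjusted p = 0.14). Myc, whose introduced form may or may not be counted under the mouse symbol, had 25.1, 36.8 and 26.0 TPM in the D325H libraries, against 29.9, 35.9 and 43.9 TPM in the EV libraries. The libraries overlapped, and the difference of -0.32 ± 0.34 was not called (limma, adjusted p = 0.542).

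Trp53 (chr11:69580359-69591873, plus strand) fell. It had 15.4, 17.7 and 131 TPM in the D325H libraries, against 254, 266 and 257 TPM in the EV libraries. D325H libraries 1 and 2 were more than an order of magnitude under EV, library 3 stood about midway on the linear scale, and the groups did not overlap. The difference was -2.92 ± 0.52 (limma, adjusted p = 0.00122). Wrap53, which runs head to head with Trp53 on the opposite strand at a gap of 104 bases, had 11.1, 13.2 and 17.9 TPM in the D325H libraries, against 14.8, 17.9 and 16.7 TPM in the EV libraries. Its libraries overlapped, with a difference of -0.23 (limma, adjusted p = 0.277). Of the 24 genes tested within 250 kb of Trp53 on either side, 6 were higher and 2 lower, with differences from -0.419 to 1.55 and a median of 0.209. Among them the histone demethylase Kdm6b rose by 0.56 ± 0.14 and the cytokine Tnfsf12 by 0.80 ± 0.20 (limma, adjusted p = 0.00762 and 0.0095), while the translation factor Eif4a1 fell (difference -0.42 ± 0.10, adjusted p = 0.0074). The calls of these 3 ended without D325H library 1, at adjusted p = 0.067, 0.0851 and 0.0727, and that of Tnfsf12 also without EV library 3 (0.0705).

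The targets of p53 moved in the same direction as Trp53 in most cases. Of 33 tested members of a list of p53 target genes, 25 were lower, 2 were higher and 6 were not called, with a median difference of -1.53. The libraries did not overlap in 24 members that were lower in D325H, against 14.9% of all tested genes, nor in 3 that were higher, against 19.4%. Summed over the list, the expression was 693, 712 and 1936 TPM in the D325H libraries, against 2626, 2902 and 3289 TPM in the EV libraries. Libraries 1 and 2 of D325H had about equal sums, and library 3 stood between them and EV. The count of members lower ran from 18 without D325H library 1 to 25 without D325H library 3. The 2 members higher were Sesn1, a stress-induced regulator of mTOR signalling, and Ddb2, a sensor of ultraviolet damage, named after their values were seen (differences 0.41 and 0.57). Their calls were less firm: the count of higher members was 0 without D325H library 1, D325H library 2, EV library 1 or EV library 3, and 1 without EV library 2.

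Cdkn1a (chr17:29090976-29100727, plus strand), which encodes the cyclin-dependent kinase inhibitor p21, had 27.3, 21.0 and 284 TPM in the D325H libraries, against 396, 469 and 541 TPM in the EV libraries. The groups did not overlap, and library 3 was again the highest of D325H. The difference was -3.05 ± 0.58 (limma, adjusted p = 0.00178). Mdm2 (chr10:117688875-117710758, minus strand), the ubiquitin ligase that p53 both activates and is degraded by, had 27.8, 31.6 and 73.6 TPM in the D325H libraries, against 101, 267 and 168 TPM in the EV libraries. Mdm2 varied more than Trp53 among the EV libraries, and still did not overlap. Its difference was -2.01 ± 0.31 (limma, adjusted p = 0.000392).

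Genes of p53-induced cell death were among those that fell. Bbc3, which encodes the BH3-only protein PUMA, had 25.5, 19.7 and 37.1 TPM in the D325H libraries, against 55.1, 69.3 and 72.4 TPM in the EV libraries, a difference of -1.26 ± 0.19 (limma, adjusted p = 0.000323). Ei24 fell less, by a difference of -0.96 ± 0.16 (limma, adjusted p = 0.00093). Eda2r, a death-receptor relative that binds ectodysplasin A2, had 0.661, 0.738 and 15.7 TPM in the D325H libraries, against 24.5, 24.1 and 31.3 TPM in the EV libraries. It was under 1 TPM in D325H libraries 1 and 2, and library 3 lay nearer to EV than to them on a log scale. Its difference was -2.91 ± 0.59 (limma, adjusted p = 0.00248). In all 3 genes the libraries of the groups did not overlap.

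Antiproliferative and stress-responsive targets followed. Btg2, an antiproliferative gene, had 24.0, 19.9 and 38.9 TPM in the D325H libraries, against 72.3, 70.9 and 93.4 TPM in the EV libraries, and fell by a difference of -1.53 ± 0.23 (limma, adjusted p = 0.000374). Sesn2, a stress-induced inhibitor of mTOR signalling, had 13.2, 13.9 and 32.4 TPM in the D325H libraries, against 42.8, 64.2 and 57.0 TPM in the EV libraries, with a difference of -1.52 ± 0.27 (limma, adjusted p = 0.00124). The groups did not overlap in either gene. Gdf15, a secreted stress hormone of the TGF-beta family, had 0.355, 1.52 and 10.4 TPM in the D325H libraries, against 13.3, 17.2 and 37.2 TPM in the EV libraries, and its difference was -2.66 ± 0.59 (limma, adjusted p = 0.00416). The call of Gdf15 ended without D325H library 1 (adjusted p = 0.0533). Cd80, a co-stimulatory membrane protein, fell by 3.16 on the log2 scale, with 1.91, 2.00 and 39.3 TPM in the D325H libraries, against 52.7, 61.7 and 73.4 TPM in the EV libraries (limma, adjusted p = 0.00299). In Cd80 D325H library 3 stood far closer to EV than to libraries 1 and 2.

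The Cdkn1a promoter is shown because the 250 bases upstream of a RefSeq start hold the paired p53 core, CATG followed by any 6 bases and again CATG. The core was searched on both strands and is the same on both. RefSeq gave 2 windows for the gene, and 1 is printed. The window printed (chr17:29090871-29090975, plus strand, GRCm38.p6, RefSeq) is limited to bases outside annotated exons, and the capitals mark the core.
Cdkn1a: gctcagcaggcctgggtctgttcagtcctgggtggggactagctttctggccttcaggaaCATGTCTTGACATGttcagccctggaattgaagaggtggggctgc
Of the 25 p53 target genes with such a window, 1 held this core (4%), which was Cdkn1a itself, against 31 of the 9780 tested genes with a window (0.317%). Among the genes that fell, 6 of 1152 held it (0.521%), and among those that rose, 8 of 1059 (0.755%). The letters are a description of the window and no measure of binding.

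**Figure D1:**
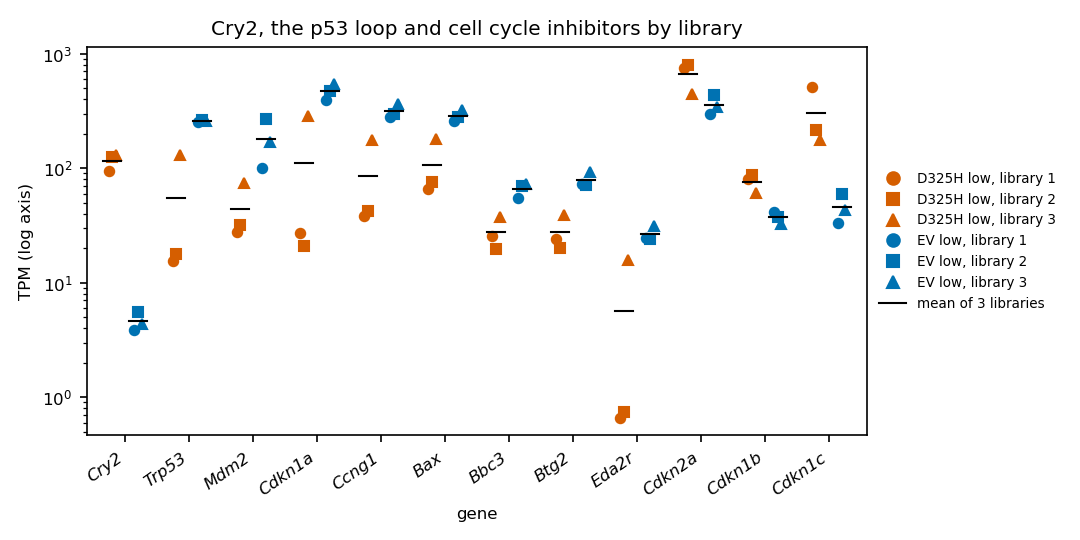
TPM on a log axis of Cry2, the p53 loop and cell cycle inhibitors in the 3 D325H libraries (orange) and the 3 EV libraries (blue) at low density, with the mean of 3 libraries as a bar. D325H library 3 (triangle) had 131 TPM of Trp53, between 15.4 and 17.7 TPM in the other D325H libraries and 254 to 266 TPM in EV, while for Cry2 it was the highest of the 3.

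Genes that act on p53 itself moved less evenly. Of 10 tested p53 regulators, 3 were lower and 1 higher, with a median of -0.27. Without D325H library 3, 5 were lower. The lower ones were Trp53 and Mdm2 and the phosphatase gene Ppm1d, whose product switches p53 signalling off. Ppm1d had 10.4, 12.0 and 15.1 TPM in the D325H libraries, against 14.2, 15.9 and 16.7 TPM in the EV libraries, with overlap, and its call (difference -0.31 ± 0.11, limma, adjusted p = 0.0388) ended without EV library 2 (0.0924), EV library 3 (0.154), D325H library 1 (0.27) or D325H library 2 (0.119). The higher one was Cdkn2a (chr4:89274471-89294653, minus strand), the gene of the RB-pathway inhibitor p16 and of ARF, which blocks Mdm2; TPM per gene do not separate the transcripts. Cdkn2a had 751, 801 and 447 TPM in the D325H libraries, against 299, 434 and 343 TPM in the EV libraries. The lowest D325H library was just above the highest EV library. The difference was 0.86 ± 0.28 (limma, adjusted p = 0.0354), and the call ended without D325H library 1 (0.16), D325H library 2 (0.153), EV library 1 (0.118) or EV library 3 (0.103).

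Among cell cycle inhibitors and the RB axis, 3 of 15 tested genes were higher and 3 lower, with a median of -0.09. Cdkn1b, which encodes the kinase inhibitor p27, had 80.5, 87.7 and 60.8 TPM in the D325H libraries, against 41.3, 37.4 and 32.7 TPM in the EV libraries. Its difference was 1.01 ± 0.20 (limma, adjusted p = 0.0023). Cdkn1c, the imprinted inhibitor p57, had 513, 217 and 175 TPM in the D325H libraries, against 33.4, 60.0 and 43.4 TPM in the EV libraries, and rose by 2.57 ± 0.54 (limma, adjusted p = 0.00326). So 2 relatives of p21 rose where p21 fell, and none of the 3 overlapped between groups. Ccnd1, a D-type cyclin that drives entry into S phase, had 26.6, 60.3 and 109 TPM in the D325H libraries, against 170.4, 151 and 156 TPM in the EV libraries, with a difference of -1.48 ± 0.31 (limma, adjusted p = 0.00278). Ccnd2, a further D-type cyclin, had 96.8, 106 and 196 TPM in the D325H libraries, against 228, 265 and 261 TPM in the EV libraries, a difference of -0.99 ± 0.20 (limma, adjusted p = 0.00257). Both D cyclins were lowest in D325H library 1. The count of higher members, which includes Cdkn2a, was 2 without D325H library 1 and 5 without D325H library 3, and that of lower members 6 without D325H library 3.

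Genes of DNA replication and of mitosis were mostly not called. Of 30 S phase genes, 3 were lower, near the 10.2% of all tested genes, and 0 higher, with a median of -0.46. In 10 of the 30 all D325H libraries were below EV, against 14.9% of all tested genes, and in 0 all were above. The summed expression was 865, 1099.8 and 1490.3 TPM in the D325H libraries, against 1698, 1638 and 1635 TPM in the EV libraries. Rrm2, the S phase subunit of ribonucleotide reductase, had 20.9, 55.8 and 136 TPM in the D325H libraries, against 184, 194 and 271 TPM in the EV libraries. Its difference was -1.95 ± 0.50 (limma, adjusted p = 0.00946), and the spread among the D325H libraries was wide. Thymidine kinase Tk1 and cyclin Ccne1 fell by 1.06 and 0.81 on the log2 scale (limma, adjusted p = 0.0246 and 0.033). None of the 3 calls held without D325H library 1 (adjusted p = 0.107, 0.188 and 0.162) or EV library 3 (0.0517, 0.0685 and 0.0979), and Tk1 and Ccne1 also ended without EV library 1 (0.0603 and 0.0523), EV library 2 (0.0555 and 0.0832) or D325H library 2 (0.0785 and 0.139). Without D325H library 3, 12 S phase genes were lower.

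Of 23 genes of G2 and mitosis, 0 were lower and 0 higher, with a median of -0.57. The summed level was 709, 1082 and 1376 TPM in the D325H libraries, against 1704, 1523 and 1379 TPM in the EV libraries. All D325H sums were below all EV sums, though that of D325H library 3 was almost the same as that of EV library 3. In 7 of the 23 members all D325H libraries were below EV, against 14.9% of all tested genes, and in 0 all were above. The survivin gene Birc5 had 33.3, 55.2 and 73.6 TPM in the D325H libraries, against 108, 95.2 and 97.2 TPM in the EV libraries, a difference of -0.95 ± 0.34 that was not called (limma, adjusted p = 0.0525). Without D325H library 3, 11 of these genes were lower, and Birc5 had an adjusted p of 0.018.

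Most MYC target genes fell, while Myc and its partners were not called. Of 10 genes of MYC and its partners, 0 were higher and 0 lower, with a median of 0.12. The smallest adjusted p was 0.0995, for Max, with 85.1, 87.4 and 96.9 TPM in the D325H libraries, against 97.4, 111 and 114 TPM in the EV libraries. Of 27 MYC target genes, 24 were lower and 0 higher, and the differences of all 27 ran from -1.17 to -0.25 with a median of -0.68. The libraries did not overlap in 26 of them, all lower in D325H, against 14.9% of all tested genes. Their summed expression was 6639.6, 7786 and 10099.7 TPM in the D325H libraries, against 12483, 12187 and 12948 TPM in the EV libraries. The sum was lowest in D325H library 1 and highest in D325H library 3, which was still under all of EV. Ribosomal protein transcripts took 13.4% to 15.1% of the TPM in the D325H libraries and 15.0% to 16.0% in the EV libraries, and their part in these values was not tested. The count depended on the libraries used: 1 was lower without D325H library 1, 10 without D325H library 2 and 8 without EV library 3.

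The nucleolar chaperone gene Npm1 had 1342, 1669.9 and 2317 TPM in the D325H libraries, against 3119, 2839 and 3193 TPM in the EV libraries. Its difference was -0.81 ± 0.16 (limma, adjusted p = 0.00213), and the groups did not overlap. Nucleolin, encoded by Ncl, had 287, 379 and 538 TPM in the D325H libraries, against 770.0, 702 and 697 TPM in the EV libraries, a difference of -0.89 ± 0.20 (limma, adjusted p = 0.00494). The mitochondrial chaperonin gene Hspd1 had 153, 219 and 386 TPM in the D325H libraries, against 524, 539 and 524 TPM in the EV libraries, a difference of -1.17 ± 0.27 (limma, adjusted p = 0.00522). In these genes D325H library 1 was lowest and the EV libraries lay close together. Lactate dehydrogenase Ldha, which interconverts pyruvate and lactate, had 1614, 1856 and 2253 TPM in the D325H libraries, against 2762, 2643 and 2803 TPM in the EV libraries, with a difference of -0.53 ± 0.12 (limma, adjusted p = 0.00484). Npm1 kept its call without any 1 library, and the other 3 lost theirs without D325H library 1 (adjusted p = 0.0588, 0.0633 and 0.0549). The lowest difference of the list was that of Hspd1.

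The Ldha promoter is printed as a member of the list that fell and that holds the E-box CACGTG, a palindrome, in the 250 bases upstream of a RefSeq start (chr7:46845599-46845803, plus strand, GRCm38.p6). RefSeq gave 2 windows for Ldha, and 1 is printed. It lies inside the gene as GENCODE spans it, from 46841475 to 46855627. The capitals mark 2 copies.
Ldha: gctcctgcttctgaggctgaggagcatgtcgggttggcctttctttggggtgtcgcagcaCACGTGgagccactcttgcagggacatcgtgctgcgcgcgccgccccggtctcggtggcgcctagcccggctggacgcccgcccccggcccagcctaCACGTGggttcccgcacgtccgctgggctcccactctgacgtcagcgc
Of the 22 MYC target genes with a window, 4 held CACGTG (18.2%), namely Cdk4, Eif4a1, Hspd1 and Ldha, against 961 of 9780 tested genes (9.83%). The share was 11.5% among all genes that fell and 9.44% among all that rose.

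Biosynthetic and stress-response genes fell next to the MYC targets. On the list of ATF4-driven stress and amino acid genes, 10 of 19 were lower and 0 higher, with a median of -0.79. Psat1, an enzyme of serine synthesis, had 85.5, 110.4 and 213 TPM in the D325H libraries, against 292, 285 and 274 TPM in the EV libraries, a difference of -1.16 ± 0.26 (limma, adjusted p = 0.00432). Asparagine synthetase, Asns, had 59.1, 79.5 and 127 TPM in the D325H libraries, against 139, 169 and 151 TPM in the EV libraries, with a difference of -0.85 ± 0.21 (limma, adjusted p = 0.00761). The mTOR inhibitor gene Ddit4, a target of both p53 and ATF4, fell by 0.83 on the log2 scale (limma, adjusted p = 0.00637). D325H libraries were below EV in all 3 genes without overlap. Without D325H library 1 the count of lower members was 1, and the adjusted p of Psat1, Asns and Ddit4 was 0.0539, 0.0886 and 0.078. Without EV library 3 the count was 6.

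Of 15 antioxidant genes of the NRF2 pathway, 7 were lower and 0 higher, with a median of -0.77. Gclc, the catalytic subunit of glutamate-cysteine ligase that starts glutathione synthesis, had 9.45, 17.4 and 77.4 TPM in the D325H libraries, against 81.0, 85.3 and 154 TPM in the EV libraries. D325H library 3 was close to EV libraries 1 and 2, and the other 2 were far below. The difference was -2.06 ± 0.50 (limma, adjusted p = 0.00706). G6pdx, the entry enzyme of the pentose phosphate pathway, had 49.8, 66.9 and 98.0 TPM in the D325H libraries, against 129, 109.9 and 142 TPM in the EV libraries, and a difference of -0.86 ± 0.19 (limma, adjusted p = 0.00379). Hmox1, which breaks down haem, fell by 0.98 on the log2 scale (limma, adjusted p = 0.00773). Only the call of G6pdx, of these 3, held without every single library, and barely so. Without D325H library 1 its limma adjusted p was just under 0.05. The call of Gclc ended without D325H library 1 (0.0846) and that of Hmox1 without D325H library 1 (0.0832) or EV library 3 (0.0624). The count of lower members was 1, 3 and 3 without D325H library 1, D325H library 2 and EV library 3, and 11 without D325H library 3.

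In arginine and polyamine metabolism, 6 of 12 genes were lower and 1 was higher, with a median of -0.51. The higher one was the antizyme gene Oaz2, named after its value was seen (difference 0.44), and no member was called higher without D325H library 1, D325H library 2 or any EV library. Ass1, the argininosuccinate synthase that makes arginine from citrulline, had 11.1, 12.3 and 147 TPM in the D325H libraries, against 318, 290.0 and 309.6 TPM in the EV libraries. Its difference was the lowest among the 2082 genes that were called without overlap, averaged at least 2 on the log2 scale and are not predicted genes or pseudogenes, -3.42 ± 0.62 (limma, adjusted p = 0.00124), and its libraries did not overlap. Genes of polyamine synthesis fell less: the first enzyme, Odc1, had 121, 159 and 215 TPM in the D325H libraries, against 289.5, 235 and 265 TPM in the EV libraries, a difference of -0.70 ± 0.21 (limma, adjusted p = 0.0199). The spermidine synthase gene Srm had a difference of -0.84 ± 0.25 and the spermine synthase gene Sms one of -0.48 ± 0.13 (limma, adjusted p = 0.0203 and 0.0142). The calls of Odc1, Srm and Sms ended without D325H library 1 (0.165, 0.123 and 0.135) or EV library 3 (0.0668, 0.0972 and 0.0687), those of Odc1 and Srm also without D325H library 2 (0.0645 and 0.0828), and that of Odc1 also without EV library 1 (0.0698). The count of lower members was 1 without D325H library 1, 2 without D325H library 2 and 1 without EV library 3.

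**Figure D2:**
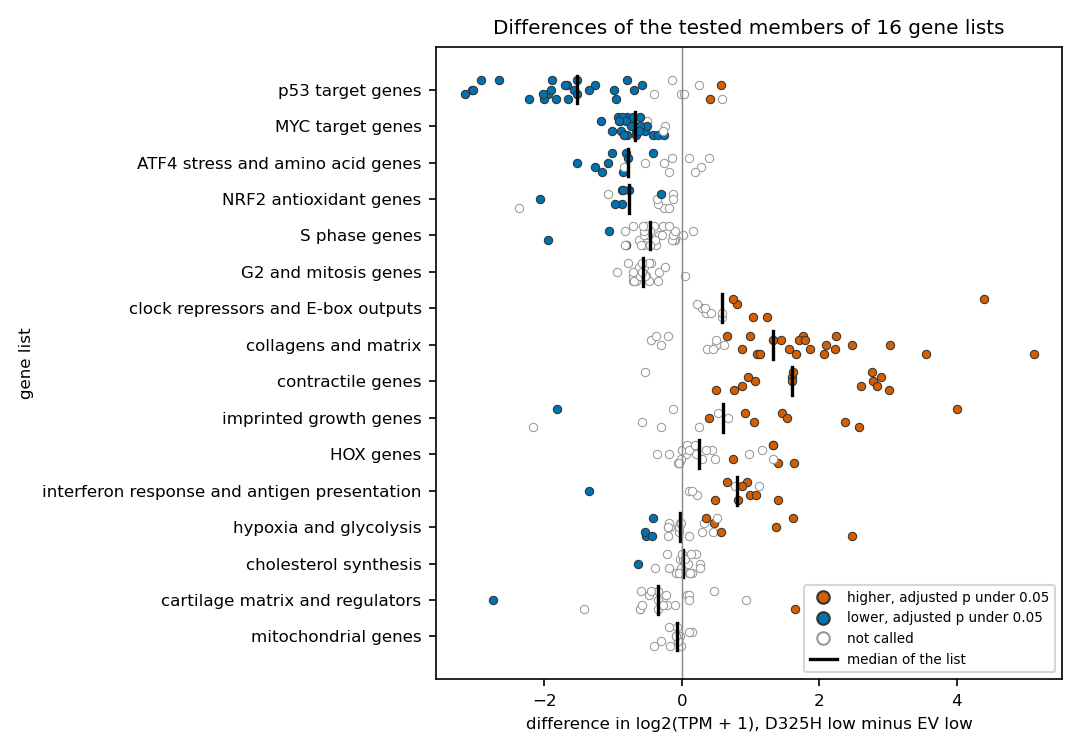
Differences in log2(TPM + 1), D325H minus EV at low density, of every tested member of 16 gene lists, with called members filled (orange higher, blue lower, limma adjusted p under 0.05), others open, and the list's median as a bar. The medians of the p53 targets (-1.53) and MYC targets (-0.68) lie left of 0, and those of the collagens and matrix (1.32) and contractile genes (1.61) right of it.

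Some clock repressors and E-box outputs rose. Of 12 tested, 5 were higher and 0 lower, with a median of 0.58, and the 5 were Cry2 itself, Per1, Per2, Per3 and Dbp. Cry2 is the introduced gene, so its rise was set by the design. It is counted in the 12 and in every median given for this list. Per3, a period gene, had 7.27, 9.96 and 6.57 TPM in the D325H libraries, against 2.49, 2.80 and 2.96 TPM in the EV libraries. The difference was 1.24 ± 0.29 (limma, adjusted p = 0.00569). Per2, whose product joins the cryptochromes in the repressor complex, had 5.10, 7.13 and 5.31 TPM in the D325H libraries, against 2.39, 3.40 and 3.53 TPM in the EV libraries, a difference of 0.74 ± 0.17 (limma, adjusted p = 0.00572). Per1 had 35.2, 27.6 and 21.7 TPM in the D325H libraries, against 13.9, 16.3 and 16.0 TPM in the EV libraries, with a difference of 0.81 ± 0.23 (limma, adjusted p = 0.0178). The groups did not overlap in any of the period genes. Dbp, a PAR bZIP transcription factor whose level follows the clock, had 32.6, 37.9 and 19.8 TPM in the D325H libraries, against 9.69, 18.2 and 14.4 TPM in the EV libraries, a difference of 1.03 ± 0.36 (limma, adjusted p = 0.0448).

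The calls of Per1 and Dbp ended without D325H library 1 (adjusted p = 0.131 and 0.164), D325H library 2 (0.0575 and 0.176), EV library 1 (0.0589 and 0.172) or EV library 3 (0.0524 and 0.101). In each of these fits 3 members stayed called, the introduced Cry2 among them. Cry1, the other cryptochrome, had 12.0, 10.6 and 8.98 TPM in the D325H libraries, against 8.63, 9.56 and 8.53 TPM in the EV libraries, and the libraries overlapped; its difference was 0.21 ± 0.18 (limma, adjusted p = 0.412). Nr1d1, which encodes the repressor REV-ERB alpha, had 17.0, 14.4 and 12.4 TPM in the D325H libraries, against 8.67, 11.6 and 13.5 TPM in the EV libraries, also with overlap, a difference of 0.36 ± 0.33 (limma, adjusted p = 0.472). Among 6 clock activators 1 was lower and 0 higher. That gene was Arntl, with 5.64, 8.26 and 14.5 TPM in the D325H libraries, against 20.6, 16.0 and 22.8 TPM in the EV libraries. Its libraries did not overlap, the difference was -1.07 ± 0.24 (limma, adjusted p = 0.00519), and the call ended without D325H library 1 (0.0631). The time of day of collection is not in the labels.

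Promoters of Per1, which rose, and of Cry1, which was not called, are set side by side because both hold the E-box CACGTG (capitals) within 250 bases upstream of a RefSeq start (GRCm38.p6, bases outside exons, written along the gene's strand). That of Per1 is chr11:69098723-69098848, plus strand, and that of Cry1 chr10:85185065-85185174, minus strand. RefSeq gave 2 windows for Per1, and 1 is printed. It lies inside the gene as GENCODE spans it, from 69095217 to 69109960.
Per1: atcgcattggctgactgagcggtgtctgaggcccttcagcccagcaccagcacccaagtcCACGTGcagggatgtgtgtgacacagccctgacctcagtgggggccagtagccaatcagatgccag
Cry1: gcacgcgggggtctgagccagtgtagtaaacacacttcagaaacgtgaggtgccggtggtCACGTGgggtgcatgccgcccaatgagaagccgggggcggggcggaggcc
Of 10 clock repressor and output genes with a window, 5 held CACGTG (50%), which were Bhlhe41, Ciart, Cry1, Per1 and Tef, against 9.83% of tested genes. Of these 5, Per1 was called.

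Matrix genes rose broadly. Of 31 collagens and other matrix genes tested, 21 were higher and 0 lower, with a median of 1.32, and in 23 the D325H libraries were all above EV, against 19.4% of all tested genes. Summed over the list, expression was 36741, 30196 and 21814 TPM in the D325H libraries, against 14599, 12109.5 and 10541 TPM in the EV libraries. Here too D325H library 3 was the D325H library nearest EV. Col1a1, the main chain of type I collagen, had 5931, 3993 and 2451 TPM in the D325H libraries, against 1459.7, 900.1 and 591 TPM in the EV libraries. The difference was 2.07 ± 0.36 (limma, adjusted p = 0.00101). Bgn, the small proteoglycan biglycan, had 6049, 5042 and 3409 TPM in the D325H libraries, against 2757, 2607 and 2379 TPM in the EV libraries, a difference of 0.87 ± 0.16 (limma, adjusted p = 0.00129). Col8a2, a chain of type VIII collagen, had 38.5, 35.1 and 15.7 TPM in the D325H libraries, against 0.705, 3.30 and 1.01 TPM in the EV libraries, and rose by 3.55 ± 0.50 (limma, adjusted p = 0.000257).

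Mfap4, a microfibril-associated glycoprotein, had the highest difference of all genes named here. It had 205, 112 and 32.9 TPM in the D325H libraries, against 1.16, 2.01 and 1.93 TPM in the EV libraries. The D325H libraries spread widely, and still were all far above EV. The difference was 5.11 ± 0.61 (limma, adjusted p = 5.45e-05). Col1a2, the second chain of type I collagen, was less certain: it had 2014, 1407 and 1462 TPM in the D325H libraries, against 1180.1, 557 and 249.5 TPM in the EV libraries, and its call (difference 1.55 ± 0.44, limma, adjusted p = 0.0173) ended without EV library 3 (0.143) or D325H library 1 (0.101). Members that were not called include fibronectin, Fn1, with a difference of -0.31, and the chains of type VI collagen, with 0.37, 0.50 and 0.49 for Col6a1, Col6a2 and Col6a3, which are named after their values were seen. The count of higher members was 12 without D325H library 1.

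Contractile genes of the smooth muscle and myofibroblast programme rose almost as a whole, 14 of 15 higher and 0 lower, with a median of 1.61. The exception was the intermediate filament gene Des, which stood near 1 TPM or below in both groups. All D325H libraries of Des were below EV, and its difference of -0.53 was not called (limma, adjusted p = 0.0746). Summed expression was 11605, 8543 and 7173 TPM in the D325H libraries, against 4372, 2969.7 and 3064 TPM in the EV libraries. The count of higher members was 13 to 14 without any 1 library. The regulatory myosin light chain gene Myl9 had 1119, 788 and 449 TPM in the D325H libraries, against 148, 90.0 and 70.0 TPM in the EV libraries. Its difference was 2.90 ± 0.37 (limma, adjusted p = 0.000125). Mylk, the kinase of that light chain, had 37.0, 31.4 and 21.2 TPM in the D325H libraries, against 2.30, 5.01 and 3.36 TPM in the EV libraries, a difference of 2.77 ± 0.39 (limma, adjusted p = 0.000257). Tropomyosin gene Tpm1 and the adhesion protein gene Vcl, which were expressed at higher TPM than Mylk, rose by 1.07 ± 0.15 and 1.62 ± 0.25 (limma, adjusted p = 0.000257 and 0.000374). In these 4 genes no D325H library overlapped EV.

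**Figure D3:**
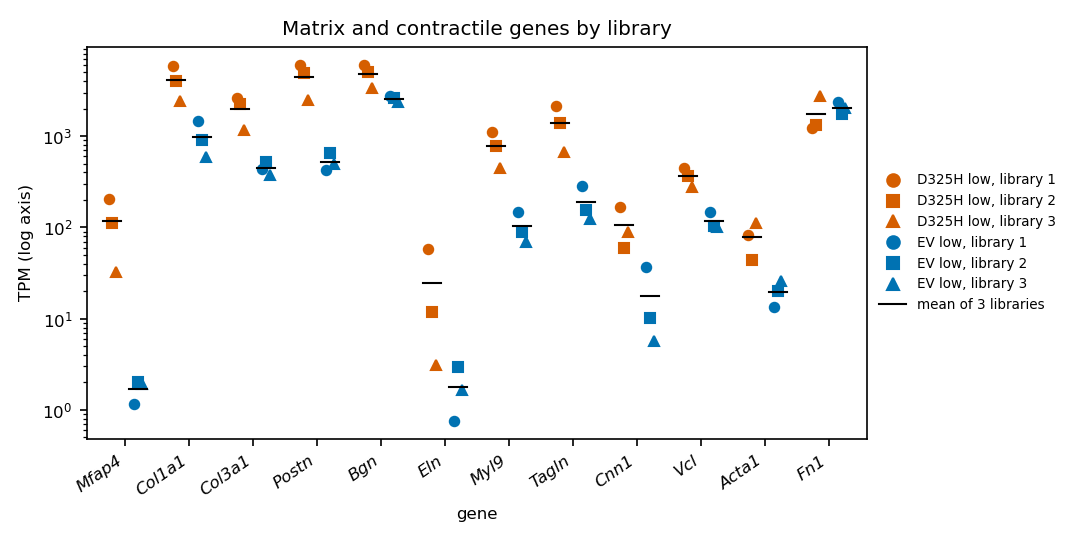
TPM on a log axis of matrix and contractile genes in the 3 D325H libraries (orange) and the 3 EV libraries (blue) at low density, with the mean of 3 libraries as a bar. Mfap4 had 32.9 to 205 TPM in D325H against 1.16 to 2.01 TPM in EV, and Fn1, which was not called, overlapped.

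Markers of fibroblasts split. Of 15, 6 were higher and 1 lower, with a median of 0.45, and 3 of the higher ones were the collagen genes Col1a1, Col1a2 and Col3a1, which the matrix list also holds. Pdgfrb, a receptor for platelet-derived growth factor, had 132, 127 and 90.5 TPM in the D325H libraries, against 55.1, 50.6 and 45.4 TPM in the EV libraries, and rose by 1.18 ± 0.20 (limma, adjusted p = 0.0008). S100a4, a calcium-binding protein known as fibroblast-specific protein, had 1002, 1318 and 2209 TPM in the D325H libraries, against 2897, 2657 and 3290.1 TPM in the EV libraries, and its difference was -1.04 ± 0.20 (limma, adjusted p = 0.00183). Neither gene overlapped between groups. The count of higher markers was 2 without D325H library 1, 3 without D325H library 2 and 2 without EV library 3.

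Enzymes that cut the matrix, and their inhibitors, moved both ways: 6 of 17 were higher and 1 was lower (median 0.42). Timp2, an inhibitor of metalloproteinases, had 869, 711 and 603 TPM in the D325H libraries, against 482, 429 and 451 TPM in the EV libraries, a difference of 0.66 ± 0.13 (limma, adjusted p = 0.00194). The membrane metalloproteinase gene Mmp14 had 243, 225 and 205 TPM in the D325H libraries, against 159.6, 132 and 123 TPM in the EV libraries, a difference of 0.70 ± 0.16 (limma, adjusted p = 0.00579). Adamts2, which trims procollagen, rose by 2.26 ± 0.48 and Adamts5, an aggrecanase, by 2.48 ± 0.59 (limma, adjusted p = 0.00332 and 0.00647). Without D325H library 1 the call of Adamts5 ended (0.0562), and the other 3 genes held theirs. The member that fell was Serpine2, a secreted protease inhibitor named after its value was seen, with a difference of -2.13 and overlapping libraries. Without D325H library 1 or D325H library 2, 0 members were lower.

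Growth genes under genomic imprinting, of which only the copy from 1 parent is active, rose in 8 of 16 cases and fell in 1, with a median of 0.60. Igf2, the insulin-like growth factor of fetal life, had 1552, 1124 and 296 TPM in the D325H libraries, against 20.3, 78.8 and 73.8 TPM in the EV libraries. The groups were far apart, although the libraries within each varied. The difference was 4.00 ± 0.74 (limma, adjusted p = 0.00142). Grb10, an adaptor that dampens insulin and IGF receptor signalling, had 717, 679 and 566 TPM in the D325H libraries, against 216, 289 and 210.4 TPM in the EV libraries. Its libraries were close together within each group, with a difference of 1.46 ± 0.14 (limma, adjusted p = 1.03e-06). Gnas, the gene of the stimulatory G protein subunit, rose by 0.40 ± 0.09 (limma, adjusted p = 0.00345), and Cdkn1c is given above. The member that fell was Peg10, named after its value was seen, with a difference of -1.81 and overlapping libraries. The count of lower members was 0 without D325H library 1, D325H library 2 or EV library 3, and 2 without D325H library 3 or EV library 1. Without D325H library 1, 4 members were higher, and 5 without D325H library 2 or EV library 1.

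Of 22 growth factor ligands and receptors, 6 were higher and 0 lower, with a median of 0.45. Igf1, the main postnatal insulin-like growth factor, had 13.9, 17.8 and 7.38 TPM in the D325H libraries, against 0.612, 0.572 and 0.986 TPM in the EV libraries, and rose by 2.95 ± 0.48 (limma, adjusted p = 0.000722). Fgfr1, a receptor for fibroblast growth factors, had 111, 103 and 71.8 TPM in the D325H libraries, against 41.7, 67.4 and 34.0 TPM in the EV libraries, a difference of 1.02 ± 0.25 (limma, adjusted p = 0.0074). Tgfb3 rose by 1.14 ± 0.36 with overlapping libraries (limma, adjusted p = 0.0282). The call of Fgfr1 ended without D325H library 1 (0.0617) or EV library 3 (0.0592), and that of Tgfb3 without D325H library 1 (0.227), EV library 2 (0.102) or EV library 3 (0.144). The list's count was 2 without D325H library 1 or EV library 3 and 3 without EV library 2. None of 6 IGF-binding proteins was called. Igfbp2 had 1089.7, 269 and 191 TPM in the D325H libraries, against 388, 63.3 and 14.1 TPM in the EV libraries, with both groups varying widely, and a difference of 2.41 ± 0.87 (limma, adjusted p = 0.054); without EV library 1 its adjusted p was 0.00693 and without D325H library 3 0.0278.

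Of 12 target genes of YAP, the transcriptional co-activator that responds to cell shape and crowding, 4 were higher and 1 was lower, with a median of 0.45. Amotl2, which feeds back on YAP, had 241, 208 and 160.2 TPM in the D325H libraries, against 121, 93.4 and 80.5 TPM in the EV libraries, a difference of 1.04 ± 0.23 (limma, adjusted p = 0.00402). F3, tissue factor, rose by 1.40 ± 0.29 (limma, adjusted p = 0.00278), while the classic targets Ccn1 and Ccn2 had differences of 0.49 and 0.31 that were not called and are named after they were seen. Ptpn14, a phosphatase that restrains YAP, was the member that fell, with overlap (difference -0.55 ± 0.18, limma, adjusted p = 0.0313), and it lost its call without D325H library 1 (0.2), D325H library 2 (0.16), EV library 1 (0.0681) or EV library 3 (0.141). The count of higher members was 2 without D325H library 1. Among 12 secreted antagonists of BMP and WNT signalling 1 rose, Sfrp2, near the 9.75% of all tested genes. Sfrp2 had 7109, 5557 and 2600.2 TPM in the D325H libraries, against 641, 1251 and 843 TPM in the EV libraries. Its difference was 2.41 ± 0.61 (limma, adjusted p = 0.00952), not called without D325H library 1 (0.0753), and 3 members were higher without EV library 1.

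Interferon response and antigen presentation genes rose in 8 of 14 tested cases and fell in 1, with a median of 0.80. B2m, the invariant chain of class I MHC, had 1123, 951 and 672 TPM in the D325H libraries, against 531, 489.9 and 499.7 TPM in the EV libraries. Its difference was 0.82 ± 0.14 (limma, adjusted p = 0.000846). Irf9, the DNA-binding part of the interferon-activated complex ISGF3, had 22.0, 19.2 and 20.6 TPM in the D325H libraries, against 10.1, 11.0 and 9.50 TPM in the EV libraries, a difference of 0.94 ± 0.22 (limma, adjusted p = 0.00563). The member that fell was Tap1, a peptide transporter that stands on the p53 list too, with 2.89, 2.70 and 8.47 TPM in the D325H libraries, against 8.06, 13.8 and 16.1 TPM in the EV libraries. D325H library 3 of Tap1 overlapped EV library 1, the difference was -1.36 ± 0.34 (limma, adjusted p = 0.00851), and the call ended without D325H library 1 (0.0737), D325H library 2 (0.0589) or EV library 3 (0.0549). The list's count of higher members was 3 without D325H library 1, D325H library 2 or EV library 3.

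Of 13 cytokines and chemokines, 3 were higher and 1 lower (median -0.14). Cxcl12, the chemokine that binds CXCR4, had 926, 1559 and 453 TPM in the D325H libraries, against 122, 99.3 and 53.04 TPM in the EV libraries, and rose by 3.32 ± 0.60 (limma, adjusted p = 0.00128). Ccl5 and Ccl7 rose at low levels, by 2.18 ± 0.51 and 1.41 ± 0.44 (limma, adjusted p = 0.00581 and 0.0267), and the call of Ccl7 ended without D325H library 1 (0.0785), D325H library 2 (0.112), EV library 2 (0.115) or EV library 3 (0.0866). Lif, leukaemia inhibitory factor, a p53 target in mouse uterus, fell by 1.15 on the log2 scale, with 1.05, 0.645 and 2.56 TPM in the D325H libraries, against 4.87, 2.86 and 4.80 TPM in the EV libraries (limma, adjusted p = 0.00486).

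Hypoxia and glycolysis genes moved in both directions, 6 of 24 higher and 4 lower, and the median was -0.02. Adm, the vasodilator peptide adrenomedullin, had 109, 97.7 and 28.7 TPM in the D325H libraries, against 17.1, 11.2 and 7.45 TPM in the EV libraries, a difference of 2.48 ± 0.62 (limma, adjusted p = 0.00835). Ndrg1 had 69.6, 64.2 and 37.4 TPM in the D325H libraries, against 25.8, 20.2 and 17.0 TPM in the EV libraries, a difference of 1.37 ± 0.32 (limma, adjusted p = 0.00647), and the glucose transporter gene Slc2a1 rose by 0.56 ± 0.13 (limma, adjusted p = 0.00601). The lower ones were the glycolytic enzymes Hk2, Pgk1, Pkm and Ldha, with differences of -0.53, -0.42, -0.43 and -0.53. Hk2, Pgk1 and Pkm are named after their values were seen. Without D325H library 1 none of the 24 was called, with adjusted p of 0.0712 for Adm, 0.0554 for Ndrg1 and 0.0708 for Slc2a1, and without EV library 3 Adm had 0.0502. The count of higher members was 3 without D325H library 2 and 2 without EV library 3.

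Both lines expressed cartilage genes, among them Col2a1, the main collagen of cartilage, with 606, 615 and 1185 TPM in the D325H libraries, against 871, 1600.3 and 1134 TPM in the EV libraries. The libraries overlapped and its difference, -0.61 ± 0.32, was not called (limma, adjusted p = 0.184). Of 21 cartilage genes, 1 was higher, 1 was lower and the median was -0.34. Without D325H library 3, 3 were lower, and without EV library 1, 2. The lower one was Col10a1, the collagen of hypertrophic cartilage, with 0.434, 2.25 and 17.0 TPM in the D325H libraries, against 18.8, 20.2 and 59.3 TPM in the EV libraries. The difference was -2.74 ± 0.64 (limma, adjusted p = 0.00585), and the call ended without D325H library 1 (0.073). The higher one, Ucma, rose by 1.64 ± 0.57 (limma, adjusted p = 0.0457) and lost its call without D325H library 1 (0.133), D325H library 2 (0.106), D325H library 3 (0.0675), EV library 1 (0.168) or EV library 2 (0.113). Of 7 bone genes 1 was called, osteopontin, Spp1, with 626, 1061 and 2992 TPM in the D325H libraries, against 4284, 3722 and 3339 TPM in the EV libraries and a difference of -1.58 ± 0.44 (limma, adjusted p = 0.0158; without D325H library 1 0.15, without D325H library 2 0.0681).

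HOX genes, which keep a cell's position along the body axis, were higher in 5 of 24 tested cases and lower in 0, with a median of 0.25. Hoxa10 had 95.8, 99.6 and 90.9 TPM in the D325H libraries, against 62.6, 56.8 and 50.8 TPM in the EV libraries, a difference of 0.74 ± 0.15 (limma, adjusted p = 0.00278). Hoxb2 had 3.41, 4.75 and 2.35 TPM in the D325H libraries, against 0.793, 0.837 and 0.64 TPM in the EV libraries, and rose by 1.32 ± 0.26 (limma, adjusted p = 0.0022). Hoxb3 and Hoxb8 rose by 1.40 ± 0.39 and 1.63 ± 0.52 (limma, adjusted p = 0.015 and 0.0307), and both calls ended without D325H library 1 (0.0859 and 0.121), D325H library 2 (0.0842 and 0.115) or EV library 3 (0.0517 and 0.0859), and that of Hoxb8 without EV library 1 (0.0909). The HOX count was 2 without D325H library 1, D325H library 2 or EV library 3, and 3 without EV library 1. None of 13 mitochondrial genes was called, and their median was -0.07.

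Proliferins, placental hormones that cultured mouse fibroblasts can express, and small proline-rich genes varied strongly between libraries. Of 7 genes, 2 were lower and the median was -2.43. Anxa8, an annexin, had 3.46, 5.16 and 44.5 TPM in the D325H libraries, against 74.1, 61.5 and 120.0 TPM in the EV libraries, a difference of -2.94 ± 0.59 (limma, adjusted p = 0.00248). Sprr1a, a component of the cornified envelope, had 4.37, 26.8 and 299 TPM in the D325H libraries, against 342, 116 and 350.3 TPM in the EV libraries, and overlapped; its difference of -2.76 ± 1.00 was not called (limma, adjusted p = 0.0537; without D325H library 3 0.00105, without EV library 2 0.049). Prl2c3 and Prl2c2 are near-identical genes among which 50-base reads may be split, so each value is uncertain. Prl2c3 had a difference of -2.73 ± 0.90 (limma, adjusted p = 0.0361) and Prl2c2 one of -2.43 ± 0.97 (0.0784). The call of Prl2c3 ended without D325H library 1 (0.235), D325H library 2 (0.142), EV library 2 (0.0579) or EV library 3 (0.184), and Prl2c2 had an adjusted p of 0.00617 without D325H library 3. The list's count of lower members was 4 without D325H library 3, and 1 without D325H library 1, D325H library 2 or EV library 3.

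Markers of other cell types are given by list. Of 5 epithelial markers tested, 1 fell, the keratin Krt19, with 28.0, 48.7 and 247 TPM in the D325H libraries, against 381, 289 and 404 TPM in the EV libraries (difference -2.32 ± 0.46, limma, adjusted p = 0.00227), and the summed list ran from 29.3 to 284 TPM in the D325H libraries and from 295 to 477 TPM in the EV libraries, lower in D325H without overlap. Without D325H library 3, 3 epithelial markers were lower, and 2 without EV library 2. Keratin 18, Krt18, had 0.17, 0.393 and 29.8 TPM in the D325H libraries, against 89.9, 4.20 and 28.5 TPM in the EV libraries, and was called lower without D325H library 3 (0.00324) or EV library 2 (0.0265). Macrophage markers summed from 3.99 to 5.61 TPM in the D325H libraries and from 4.08 to 6.92 TPM in the EV libraries, with Adgre1 and Tyrobp at 0, and endothelial markers from 4.33 to 8.98 TPM in the D325H libraries and from 3.19 to 5.49 TPM in the EV libraries, with Cdh5 at 0. Of 8 neural markers tested, 1 was higher and 1 lower, against 9.75% and 10.2% of all tested genes. These were Ncam1 (difference 1.59 ± 0.27, limma, adjusted p = 0.00093) and Sox2 (-0.72 ± 0.18, 0.0083, and 0.0825 without D325H library 1), with Sox10 at 0. Of 4 muscle markers 1 rose, the skeletal actin Acta1, with 81.8, 44.5 and 111 TPM in the D325H libraries, against 13.4, 20.2 and 25.9 TPM in the EV libraries (difference 1.89 ± 0.34, limma, adjusted p = 0.00125). Of 7 adipocyte markers, whose median difference was -0.78, none was higher and 4 had all D325H libraries below EV, against 14.9% of all tested genes. Called lower were 2, the fatty acid carrier Fabp4 (-1.99 ± 0.39, 0.00204) and the transcription factor Pparg (-0.78 ± 0.26, 0.0354), the last ending without D325H library 1 (0.178), D325H library 2 (0.0662), EV library 2 (0.11) or EV library 3 (0.14). The part of such cells in the results above was not tested.

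Beyond the lists, the 12 genes with the highest and the 12 with the lowest differences were taken from 2082 genes that were called, averaged at least 2 in log2(TPM + 1) and did not overlap between groups. The highest were Mfap4, Cry2, Igf2, Lrrc15, Ccn3, Col8a2, Penk, Cxcl12, Aoc3, Gpx3, Tnnt3 and Htra1. All but Cry2 and Tnnt3 encode secreted or membrane proteins. The opioid precursor gene Penk had 3935, 2058 and 1400.2 TPM in the D325H libraries, against 199, 186 and 196 TPM in the EV libraries, the highest TPM of the 12 in D325H, with a difference of 3.53 ± 0.83 (limma, adjusted p = 0.0061; 0.0535 without D325H library 1). Lrrc15, a membrane protein of activated fibroblasts, had 83.4, 32.5 and 5.99 TPM in the D325H libraries, against 2.63, 0.739 and 0.535 TPM in the EV libraries, and rose by 3.66 ± 0.62 (limma, adjusted p = 0.000846). Its value in D325H library 3 was nearer to EV than to D325H library 1. Ccn3, a matricellular protein, rose by 3.55 ± 0.48, and Aoc3, a vascular amine oxidase, by 3.28 ± 0.45 (limma, adjusted p = 0.000257 and 0.000257). Gpx3, the secreted glutathione peroxidase, had 504, 580.2 and 142 TPM in the D325H libraries, against 47.7, 28.5 and 34.9 TPM in the EV libraries (difference 3.22 ± 0.65, limma, adjusted p = 0.00241). Htra1, a secreted serine protease, rose by 3.10 ± 0.69 (limma, adjusted p = 0.00444), a call that ended without D325H library 1 (0.0537).

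Tnnt3, a fast skeletal troponin T, varied little between the libraries of a group. It had 46.7, 33.1 and 38.9 TPM in the D325H libraries, against 2.83, 4.31 and 3.77 TPM in the EV libraries. D325H library 3 lay within the other D325H libraries, the difference was 3.13 ± 0.32 (limma, adjusted p = 4.16e-06), and together with Cry2 it was called in every alternative processing that was run. Of the way from the EV mean to the mean of D325H libraries 1 and 2, library 3 had gone a median of 27.8% in TPM (8.28% to 97.2%) over the 12 highest genes without Cry2, and 119% for Cry2. In log2(TPM + 1) the same median was 62.8% (36.9% to 99.5%), and Cry2 stood at 106%.

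The lowest differences were those of Ass1, Cd80, Cdkn1a, Anxa8, Ltc4s, Trp53, Eda2r, Lmo1, Col10a1, Gdf15, Psrc1 and Dglucy. The list of p53 target genes holds 4 of them, Cd80, Cdkn1a, Eda2r and Gdf15. Psrc1, a microtubule-binding protein, had 21.2, 22.4 and 129 TPM in the D325H libraries, against 195, 270.1 and 255 TPM in the EV libraries, a difference of -2.55 ± 0.44 (limma, adjusted p = 0.00093). Dglucy, the mitochondrial D-glutamate cyclase, had 6.46, 6.82 and 42.1 TPM in the D325H libraries, against 73.9, 70.6 and 79.6 TPM in the EV libraries, a difference of -2.48 ± 0.51 (limma, adjusted p = 0.00286). Their profiles over the 6 libraries look like that of Trp53, with D325H libraries 1 and 2 low, library 3 between and EV high. This order was not particular to these genes. D325H library 3 was the D325H library nearest EV in 90.1% of the 1145 genes called lower without overlap. Ltc4s, the leukotriene C4 synthase, had 4.27, 2.00 and 17.7 TPM in the D325H libraries, against 30.2, 54.7 and 75.4 TPM in the EV libraries, a difference of -2.93 ± 0.57 (limma, adjusted p = 0.00204), and the transcriptional cofactor Lmo1 one of -2.91 ± 0.61 (0.00302). Library 3 had gone a median of 50.2% of the way in TPM (38.4% to 71.0%) over the 12 lowest genes, and 22.3% in log2(TPM + 1) (14.6% to 39.3%). The median share was thus higher in the 12 lowest genes in TPM, and higher in the 12 highest in log2(TPM + 1).

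**Figure D4:**
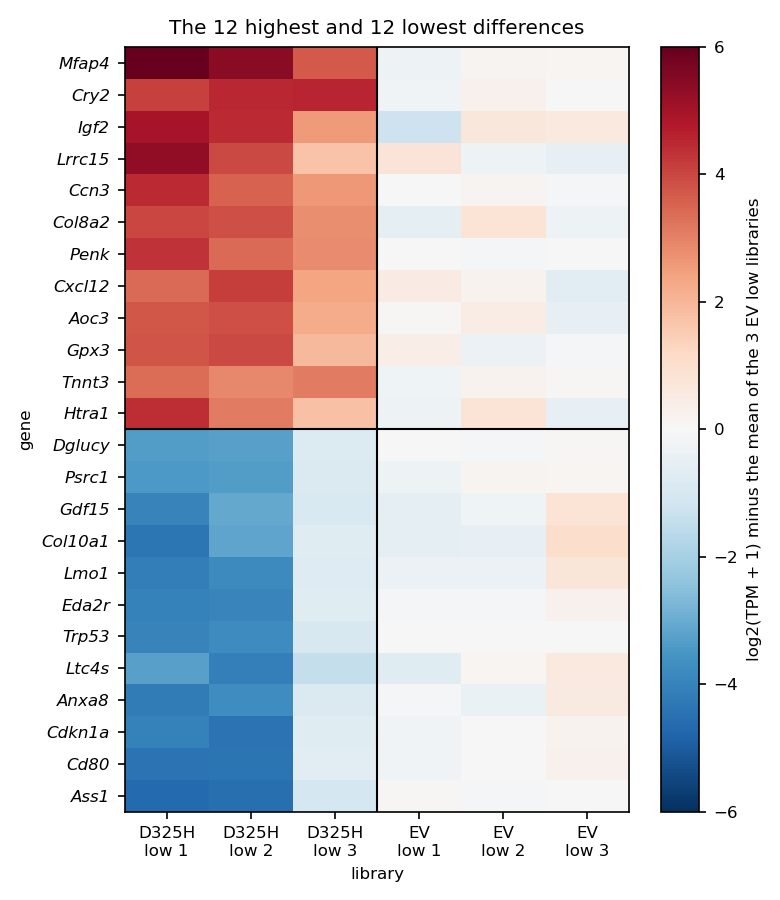
Heat map of log2(TPM + 1) minus the mean of the 3 EV libraries for the 12 genes with the highest and the 12 with the lowest differences, with the D325H libraries in the left columns and the EV libraries in the right ones. The column of D325H library 3 is paler than the mean of libraries 1 and 2 in each gene except Cry2.

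The same constructs were compared at the higher density, 500 cells per well collected on day 11, so that density and day of harvest cannot be told apart. There 100 genes were called (0.71% of 14093), 51 of them higher in D325H cells (0.362%) and 49 lower (0.348%), with 2288 at an unadjusted p under 0.05. The difference between the densities itself was called for 0 genes by limma, and 983 had an unadjusted p under 0.05, so a call at low density alone does not show that the effect depended on density. With no filter on low expression 1 gene was called for it, the predicted gene Gm17030, and without D325H library 3 of low density 3 genes, Rbm3, Stra6 and Ddit4l. The values stand side by side for the lists: the median of p53 targets was -1.53 at low and -0.97 at high density, of MYC targets -0.68 and -0.35, of collagens and matrix 1.32 and 0.63, of contractile genes 1.61 and 0.69, and of clock repressors 0.58 and 0.42. Genes of G2 and mitosis had medians of -0.57 and 0.00.

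Cry2 had a difference of 4.21 at high density (limma, adjusted p = 1.38e-07), with 111 ± 56.4 TPM in D325H cells and 4.43 ± 0.518 TPM in EV cells (SD, n = 3 each). Trp53 had 72.5 ± 48.0 TPM in D325H cells at high density, against 263 ± 20.1 TPM in EV cells, a difference of -2.05 that was not called (limma, adjusted p = 0.0595). The change of the Trp53 difference between densities was -0.87 ± 0.74 (limma, adjusted p = 0.774). Igf2 and Grb10 were called at both densities, with high-density differences of 3.22 and 0.89 (limma, adjusted p = 0.0453 and 0.00313). Stra6, a receptor for retinol-binding protein, had the smallest p for a density difference: at low density it had 0.235, 0.204 and 1.26 TPM in the D325H libraries, against 7.01, 2.70 and 3.22 TPM in the EV libraries, a difference of -1.74, and at high density a difference of 0.32. The change was -2.06 ± 0.40 (limma, adjusted p = 0.204). Rbm3, a cold-induced RNA-binding protein, had 324, 369 and 502 TPM in the D325H libraries, against 746, 657 and 600.4 TPM in the EV libraries at low density, with differences of -0.76 at low and 0.23 at high density (adjusted p of the change 0.204).

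**Figure D5:**
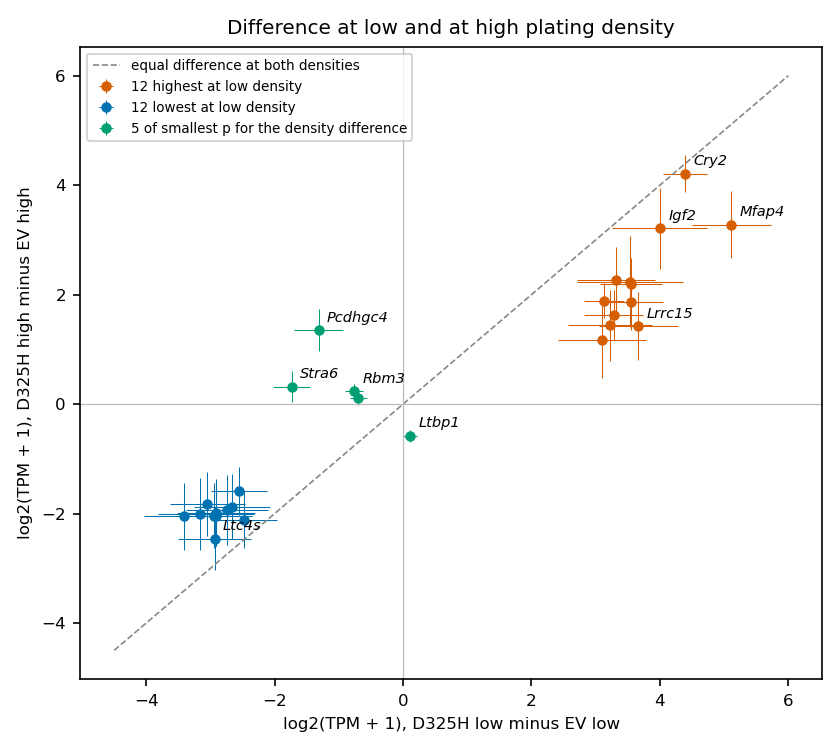
Difference in log2(TPM + 1), D325H minus EV, at low density (horizontal axis) and at high density (vertical axis) for the 12 highest, the 12 lowest and 5 genes of smallest p for the density difference, with standard errors as bars and a dashed line of equality. The 12 highest and 12 lowest kept their sign at high density, and the 5 genes of smallest density p lie on opposite sides of 0 at the 2 densities, while no density difference was called.

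Cells with wild-type CRY2 at low density share the EV control libraries with D325H, so the 2 comparisons are not independent and their values are only set side by side. Against EV, 2 genes were higher in WT cells (0.0142%) and 41 lower (0.291%). The p53 target list had a median of -1.53 in D325H and 0.16 in WT, MYC targets -0.68 and 0.01, collagens and matrix 1.32 and -0.29, contractile genes 1.61 and -0.05, and clock repressors 0.58 and -0.07. Trp53 had 54.8 ± 66.3 TPM in D325H cells and 281 ± 45.5 TPM in WT cells (SD, n = 3 each), and Cdkn1a 111 ± 149.9 and 581 ± 28.2 TPM. Tested directly, the difference of D325H minus WT was -3.02 for Trp53 and -3.37 for Cdkn1a (limma, adjusted p = 0.000287 and 0.000294). The mutants S510L and F428D, measured against the same EV libraries, had 53.2 ± 27.8 and 273 ± 55.9 TPM of Trp53. Igf2 had 991 ± 639 TPM in D325H cells, 12.1 ± 11.9 TPM in WT cells, 703 ± 176 TPM in S510L cells and 8.07 ± 5.19 TPM in F428D cells. Per2 had 5.85 ± 1.12 TPM in D325H cells, against 3.08 ± 0.353, 2.92 ± 0.387 and 2.37 ± 0.497 TPM in WT, S510L and F428D cells. Per1 and Dbp were higher than EV in S510L cells too, by 0.96 and 1.19 (limma, adjusted p = 0.00911 and 0.0305). They had 32.1 ± 11.5 and 36.7 ± 22.0 TPM there, and 28.2 ± 6.75 and 30.1 ± 9.33 TPM in D325H cells. Nr1d1 was also called higher in S510L cells (1.39, limma, adjusted p = 0.00836), and Per2 and Per3 were not (-0.06 and 0.33).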

How the data were processed

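RNA of 30 libraries, 3 in each of 10 groups, was sequenced on the BGISEQ-500 as single-end reads of 50 bases at a stated depth of 20000000 reads per library, per the labels' protocols. The authors deposited 1 table of TPM values per gene symbol. The submitters' processing notes name kallisto, with no version, and the human assembly GRCh37.p13, although the symbols are those of mouse genes. Which transcripts were counted is thus not given in the sources used here. Whether introduced c-MYC counts under Myc is unknown, while the values of Cry2 given above differ between D325H and EV cells. Libraries were taken from numbered columns that match the sample numbers in the labels. TPM carry no depth, so no counting error is given, and they are shares of a library.

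Values were taken as log2(TPM + 1). The fit covered 14093 genes with at least 1 TPM in at least 3 libraries, with limma 3.58.1 in R 4.3.3 (group means of all 30 libraries, trended empirical Bayes variance), and p-values were Benjamini-Hochberg adjusted over all of them. Fold changes on this scale understate the change of low genes. Coordinates are from GENCODE M21 (GRCm38), and promoter sequences from RefSeq (GRCm38.p6), which gave a window for 9780 tested genes. A gene with several RefSeq starts had several windows, and counted as holding a motif if any of them did. Figures were drawn with matplotlib 3.10.9 in Python 3.11.15.

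Named genes are 10 fixed genes, the 12 highest and 12 lowest differences as described, passing over predicted genes and pseudogenes, the 4 members of smallest p in each of 37 lists, and the 5 of smallest p for the density difference. The members and lists were chosen with earlier results of these data known. Alternatives were other pseudocounts (0.1 and 5), no filter and a mean TPM of at least 5, quantile and median-ratio scaling, no variance trend, only the groups compared, a replicate block, and leaving out each library. The cholesterol synthesis list is not reported here.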

Additional observations from a re-analysis of the deposited data

Results flagged for a closer look

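Among the 161 named genes, 2 had D325H and EV libraries that did not overlap at either density, in opposite directions. The other tested genes were not searched for this pattern. Both genes were named as 2 of the 5 of smallest p for the density difference, a choice that favours opposite movement. Pcdhgc4, a clustered protocadherin, was lower at low density, with 8.06, 7.07 and 3.99 TPM in the D325H libraries, against 12.4, 22.6 and 16.9 TPM in the EV libraries, and higher at high density, with 19.9 ± 6.24 TPM in D325H cells and 7.60 ± 4.27 TPM in EV cells (SD, n = 3 each). The low-density difference minus the high-density one was -2.67, which limma did not call (adjusted p = 0.204). At low density alone Pcdhgc4 had a difference of -1.32 ± 0.38 (limma, adjusted p = 0.0175), and that call ended without EV library 2 (0.0727), EV library 3 (0.0592) or D325H library 3 (0.0569). Ltbp1, a binding protein of latent TGF-beta, had 89.4, 93.0 and 87.8 TPM in the D325H libraries, against 81.2, 84.3 and 83.9 TPM in the EV libraries at low density, and 62.3 ± 2.56 TPM in D325H cells and 93.8 ± 7.42 TPM in EV cells at high density. Its change was 0.693 (limma, adjusted p = 0.609), and its difference at low density, 0.11 ± 0.11, was not called (limma, adjusted p = 0.492).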

How the results depend on the processing

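The number of genes called between D325H and EV at low density was 2811. It was 2714 and 2856 with pseudocounts of 0.1 and 5, 2251 with no filter, 2577 with a mean TPM of at least 5, 3139 with quantile normalization, 3011 with median-ratio scaling and 2692 with no variance trend. It moved to 5 with only the groups compared, where fewer libraries give the spread, and ranged from 647 to 4121 when 1 library was left out. The share of higher calls was 48.9%, and 57.0% with median-ratio scaling. The number of genes whose difference changed between densities was 0, moved to 1 with no filter (the predicted gene Gm17030), and ranged from 0 to 3 when 1 library was left out, the 3 without D325H low library 3 being Rbm3, Stra6 and Ddit4l. Of 161 named genes 112 were called. None of the 161 changed sign in an alternative while called there or in the main fit. Sign changes of genes called in neither fit were not counted. With only the groups compared 110 lost their call, and 62 of the 112 kept it in every other alternative. Same-numbered libraries paired in part at most: the correlations of their deviations were -0.05, 0.217 and 0.138. Libraries 2 and 3 of each group correlated best with their own number, and D325H library 1 with EV library 2 (0.142). With the replicate block 2958 genes were called, 2750 of them shared with the 2811, and 0 for the density difference; not every library correlated best with its own number. TPM give no depth, so no floor can be set for low genes.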
